A study of Mus musculus with 17 samples.

Results

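The samples described here are colons of wild type (WT) mice on day 7 and on day 2 of a challenge with 2.5% dextran sodium sulfate (DSS) in the drinking water, and the comparison follows gene expression between the early and the late time of the challenge. They were chosen by their titles, which gave 2 samples on day 7 and 3 on day 2, that is 5 of the 17 samples of the series. WT mice carried 2 floxed alleles of PPAR γ without Cre (PPAR γ flfl; Cre-) on a C57BL/6J background. The other genotype, CD4cre, carried the same floxed alleles with Cre driven in CD4+ and CD8+ T cells (PPAR γ flfl; CD4Cre+), so that PPAR γ, a nuclear receptor that restrains inflammatory gene expression, was lost in T cells. It was measured in 3 samples on each day, and 3 further WT samples came from mice without DSS (day 0). RNA of colon was hybridized to Affymetrix mouse expression arrays, which read each gene with 1 or several probe sets. Age, sex, the hour at which mice were killed and whether an array held 1 mouse or a pool are not given in the sources used here, so p-values measure only the spread between these samples, which may be technical.

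DSS is toxic to the lining of the colon. It strips epithelial cells, lets luminal bacteria reach the lamina propria and draws in neutrophils and monocytes, and loss of epithelium is followed by renewed division of crypt cells and repair. Colonocytes draw energy largely from butyrate, and their transporters, channels and enzymes change along the length of the colon, as do Hox genes, whose expression marks position along the gut from proximal to distal.

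Values are log2 signal after background adjustment and normalization by the authors, with extremes of 0.76 and 16.5. To tell expressed from silent genes, 113 probe sets of genes that colon should not express (of retina, testis, heart and the like) were read, and their 95th percentile, 3.34, served as background. A group was counted as at background where all its samples lay under it. Markers of colon were present in all 5 samples: Muc2, the main secreted mucin, was at 15.75 and 15.69 on day 7, against 15.42, 15.35 and 15.36 on day 2. The 5 samples also differed in ways that the labels do not name. A Hox position score was formed by subtracting the average of 11 anterior Hox genes (paralog groups 2 to 8) from that of 11 posterior ones (groups 9 to 13). It was -0.00 and 0.17 on day 7, against 1.93, 1.80 and 1.77 on day 2, without overlap, while WT day 0 samples were at 0.20, 1.25 and 0.21. Members of the score went both ways. Of the 11 posterior genes 3 were higher and 5 lower on day 7 without overlap, with a median difference of -0.02. Of the 11 anterior genes 6 were higher and 3 lower (18.3% and 19.7% of all genes), with a median of 0.17. Among posterior genes Hoxb13 differed by -8.34 and Hoxd10 by 4.56, so single genes weigh on the score. Since day and score did not overlap, the day of DSS and the position from which a piece of colon was taken cannot be told apart in these 5 samples. Pancreatic digestive enzymes had a median of 12.2 in replicate 2 of day 2 and of at most 2.71 in the other 4 samples. The mean of 7 adipocyte genes was 7.10 and 6.04 on day 7, against 7.77, 7.14 and 8.28 on day 2, and that of 12 smooth muscle genes was 11.2 and 11.2, against 11.6, 11.7 and 11.4. Fewer cells of a type and less RNA per cell cannot be told apart in RNA from a piece of colon.

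Expression was compared with limma, fitted with 6 group means over the 17 samples. Probe sets with a Benjamini-Hochberg adjusted p under 0.05, over the 45037 tested, are referred to as called. Of these, 110 (0.244%) were called, 63 higher (0.14%) and 47 lower (0.104%) on day 7 than on day 2, and 4533 had an unadjusted p under 0.05. They stood for 91 genes, with 14 probe sets that carry no single gene symbol. The day 7 and day 2 samples did not overlap in any of the 110, but 14.6% of all probe sets were higher and 18.8% lower without overlap, and an exact permutation test of 2 against 3 samples cannot give a p under 0.1. Of the 63 rises, 13 were at background on both days and 10 on day 2, and the median difference was 0.77. Of the 47 falls, 6 were at background on day 7, and the median absolute difference was 1.00.

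The count depended on single samples. Without replicate 1 of day 2 only 48 probe sets were called and without replicate 2 or 3 of day 2 there were 90 and 89, whereas without replicate 1 or 2 of day 7, which leaves a lone sample assumed to vary like the other groups, there were 194 and 286. With the Hox position score as a covariate 5 were called. All 110 then kept their sign, with a median difference in the called direction of 0.73 in place of 0.89, and 3 of them stayed called. These 3 were at background on both days, so no call above background stayed. A fit of the 5 samples alone called 713, of which 50 were among the 110.

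**Figure D1:**
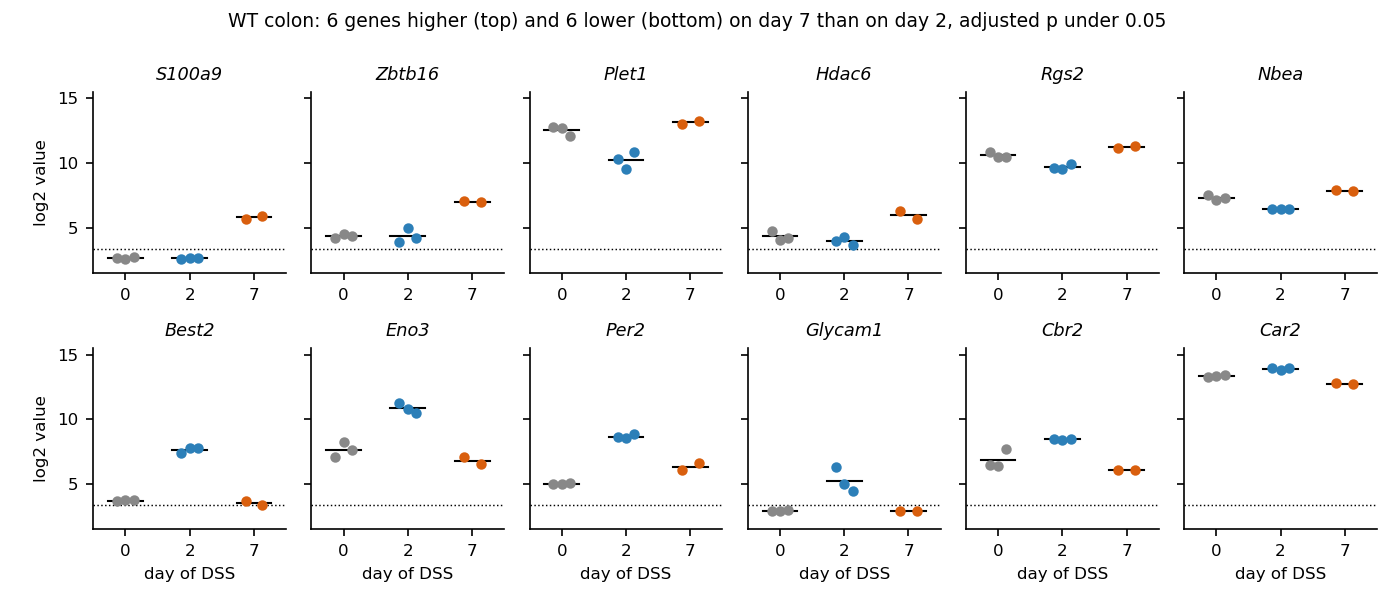
Log2 values (y axis) of 12 called genes in WT colon without DSS (0) and after 2 or 7 days of it (x axis). Points are samples, lines are group means and the dotted line is the background level of 3.34. In the upper row both day 7 samples lie above all 3 day 2 samples, and in the lower row both lie below them. Best2, Eno3 and Glycam1 are near their day 0 level on day 7.

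Among genes of inflammation, S100a9, which encodes a subunit of the neutrophil protein calprotectin, was the 1 called gene. It stood at 5.71 and 5.89 on day 7, against 2.60, 2.65 and 2.63 on day 2, where it was at background as on day 0 (2.63, 2.61 and 2.72). The day 7 level was at least 5.50-fold higher (log2 difference 3.17, SE 0.55, adjusted p = 0.0419, n = 2 and 3). S100a8, its partner, had 6.15 and 4.91 on day 7, against 2.67, 2.71 and 2.40, and missed the threshold (adjusted p = 0.059). Of 15 measured neutrophil genes 9 were at background in both groups and the median difference was -0.01, the same as that of all 18193 genes measured. The call of S100a9 ended when any 1 of the 5 samples was left out (adjusted p up to 0.28 over all alternatives).

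Other lists of inflammation held no called gene. Saa3, an acute phase protein, was at 11.32 and 10.28 on day 7, against 4.84, 5.63 and 6.29 on day 2, without overlap, but it reached 10.91 in a day 0 sample (log2 difference 5.21, SE 1.22, adjusted p = 0.125). Serpina3n, a protease inhibitor of the acute phase, was 1.85 higher (SE 0.49, adjusted p = 0.171). The 16 acute phase genes had a median difference of 0.22, 28 chemokines one of 0.00 and 22 genes of monocytes and macrophages one of 0.19. Acute phase genes went both ways, with 9 higher and 7 lower in mean. Of them 6 were higher and 4 lower without overlap (18.3% and 19.7% of all genes). The sum of their unlogged values was 10808 to 12323 on day 7, against 18530 to 23278 on day 2. Il6, a cytokine of the acute phase response, was at background in all 5 samples, and Il1b was at 5.70 and 5.01, against 4.50, 4.35 and 4.93 (difference 0.76, SE 0.85). The 7 markers of leukocyte extravasation that the study followed lay between -0.78 (Icam1, an adhesion molecule of endothelium) and 0.79 (Itgax, an integrin of dendritic cells), with none called. Gzmb, a granule protease of cytotoxic lymphocytes, was at 4.89 and 5.55, against 4.25, 4.15 and 3.27 (difference 1.33, SE 0.40, adjusted p = 0.239), and Cd3e, which defines T cells, was at background throughout, as were 9 of 18 T cell genes.

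Of the genes of lymphoid tissue, 1 passed the test. Glycam1, a mucin-like ligand of L-selectin made by high endothelial venules of lymphoid tissue, was at 2.90 and 2.87 on day 7, against 6.32, 4.96 and 4.44 on day 2, and was the 1 called member of 10 lymphoid follicle genes. Its day 7 samples were at background, as on day 0, and it was at least 3.73-fold higher on day 2 (log2 difference -2.35, SE 0.36, adjusted p = 0.0295). The other members were not called: Cxcl13, which attracts B cells to follicles, had 8.69 and 8.74, against 9.78, 9.21 and 9.44 (difference -0.76, SE 0.49). The list median was -0.49, and 6 of 10 were lower without overlap, where 19.7% of all genes were. Among 14 measured B cell genes none was called, 7 were lower without overlap and none higher, and the median was -0.47. Ms4a1, the B cell marker CD20, was at 5.33 and 5.42, against 6.99, 6.32 and 6.62 (difference -1.27, SE 0.48, adjusted p = 0.372), and Bank1, a scaffold of B cell receptor signalling, was 1.56 lower on day 7 (difference -1.56, SE 0.54). Whether follicles were contained in each piece of colon was not tested.

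Epithelial genes moved in both directions. Best2, an anion channel of the colonic epithelium known from goblet cells, fell to 3.68 and 3.36 on day 7, against 7.36, 7.81 and 7.79 on day 2, and was at 3.70, 3.71 and 3.71 on day 0 (log2 difference -4.13, SE 0.72, adjusted p = 0.0419). Its day 7 and day 0 samples were alike and all 3 day 2 samples stood apart. Car2, carbonic anhydrase 2, which supplies bicarbonate and protons for salt absorption, had 12.81 and 12.69, against 13.94, 13.80 and 13.98 (difference -1.16, SE 0.20, adjusted p = 0.0419). Trpm6, a channel for magnesium uptake, had 7.06 and 6.60, against 8.98, 8.43 and 8.56 (difference -1.83, SE 0.28, adjusted p = 0.0295). Slc26a3, the main chloride-bicarbonate exchanger of the colon surface, was 2.71 lower without overlap and not called (difference -2.71, SE 0.65, adjusted p = 0.134). Of 24 measured genes of absorptive colonocytes 1 was called lower (Best2, although it is known from goblet cells) and none higher, 8 were higher and 9 lower without overlap (18.3% and 19.7% of all genes), and the median was -0.05. The difference of Best2 was -1.99 with the Hox position score as a covariate. The 17 goblet cell genes had a median of -0.04.

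Plet1, a surface protein anchored by glycosylphosphatidylinositol and made by epithelial cells, was high in every sample and rose to 13.06 and 13.27 on day 7, against 10.30, 9.56 and 10.86 on day 2 (log2 difference 2.92, SE 0.50, adjusted p = 0.0403). Day 0 samples were at 12.79, 12.68 and 12.12, so the 3 day 2 samples were the low ones. Its other 2 probe sets were higher on day 7 and not called. Among crypt stem cell genes no member was called. Axin2, a target of Wnt signalling, was at 6.18 and 5.92, against 4.64, 4.50 and 4.67, and lay just outside the threshold (difference 1.45, SE 0.26, adjusted p = 0.054). Lgr5, the receptor that marks crypt stem cells, had 6.84 and 7.06, against 3.81, 4.66 and 3.82 (difference 2.86, SE 0.66, adjusted p = 0.121), and Ascl2, a transcription factor of stem cells, had 6.40 and 5.67, against 3.65, 3.66 and 4.64 (difference 2.05, SE 0.51). Of 15 members 12 had a higher and 3 a lower mean on day 7, 9 were higher and 1 lower without overlap (18.3% and 19.7% of all genes), and the median was 0.81. With the Hox position score as a covariate this median was 0.39, and Plet1 was 1.78 higher. In CD4cre mice the list median was -0.28.

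**Figure D2:**
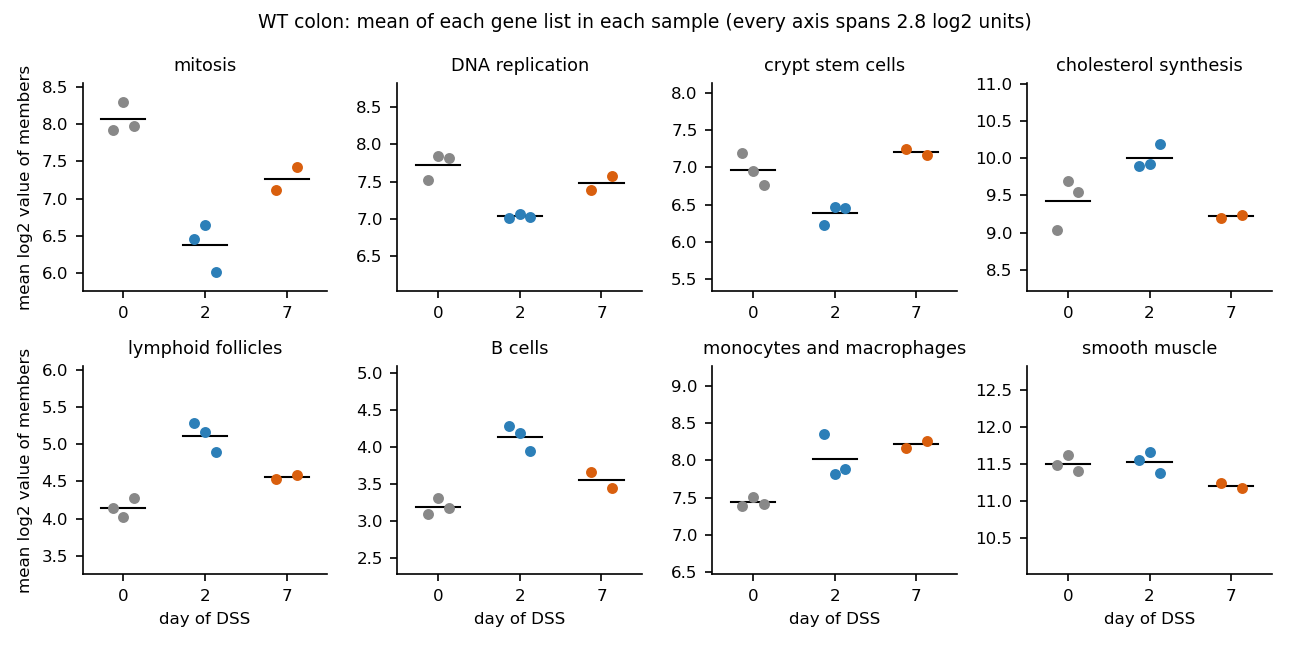
Mean log2 value (y axis) of 8 gene lists in each WT sample without DSS (0) and after 2 or 7 days of it (x axis). Points are samples and lines are group means. For 7 lists the day 7 and day 2 samples do not overlap, and for monocytes and macrophages they do.

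No gene of mitosis was called. Of 25 measured members 22 were higher without overlap, none was lower (18.3% and 19.7% of all genes), and the median difference was 0.90. At an unadjusted p under 0.05, 12 of the 25 were higher, where 7.32% of all genes were, and 4.97% of all genes were lower. The mean of the list was 7.11 and 7.43 on day 7, against 6.01 to 6.65 on day 2, and on day 0 it was 7.93 to 8.30. So day 2 was the lowest of the 3 days and day 7 lay between day 2 and day 0. Cenpf, a kinetochore protein, had 7.33 and 7.86, against 5.64, 6.30 and 5.14 (difference 1.90, SE 0.45, adjusted p = 0.124). Mki67, which encodes the proliferation antigen Ki-67, had 10.03 and 10.09, against 8.81, 9.31 and 8.28 (difference 1.26, SE 0.38, adjusted p = 0.232). The median of the list was 0.88 with the Hox position score as a covariate. Among 27 genes of DNA replication, 14 were higher without overlap and none was lower or called, with a median of 0.47, or of 0.28 with the score as a covariate. Mcm7, a subunit of the replicative helicase, had 10.50 and 10.49, against 9.31, 9.68 and 9.41 (difference 1.03, SE 0.28, adjusted p = 0.189, and 0.44 with the score).

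Because most mitosis genes differed in 1 direction, their promoters were searched for the cell cycle homology region, TTTGAA, and for CCAAT, which often stand side by side in such promoters. The search was added after the values were seen. RefSeq windows of GRCm38.p6, from 250 bases before to 50 bases after the start site, were at hand for 20 of the 25 members, and both strands were read. TTTGAA was found in 15 of the 20 genes (75.0%), where 20.2% of 27025 gene symbols held it, and CCAAT in 16 (80.0%), where 41.1% did. A match describes these letters only and is not a bound site. Stretches of 2 promoters are shown, on the minus strand and with TTTGAA in capitals, for Mki67 (chr7:135716432-135716535, motifs starting 116 and 98 bases before the start site) and for Cdk1, the kinase that starts mitosis (chr10:69352913-69353023, motifs starting 71 and 15 bases before it).
Mki67: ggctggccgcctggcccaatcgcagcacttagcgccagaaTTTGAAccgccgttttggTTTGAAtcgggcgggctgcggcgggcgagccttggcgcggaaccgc
Cdk1: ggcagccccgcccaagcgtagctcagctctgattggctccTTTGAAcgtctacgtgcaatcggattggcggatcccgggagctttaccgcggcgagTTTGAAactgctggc
In both stretches a CCAAT box, on either strand, lies upstream of the first motif. Cdk1 itself was 0.65 higher on day 7 (SE 0.31, adjusted p = 0.514), without overlap.

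Several genes of energy metabolism fell, but not every list of such genes did. Of 17 genes of fatty acid oxidation and ketogenesis none was called. Of these, 10 were higher and 2 lower on day 7 without overlap (18.3% and 19.7% of all genes). Their median was 0.34, or -0.63 with the Hox position score as a covariate. Eno3, the muscle form of the glycolytic enzyme enolase, was at 7.06 and 6.54 on day 7, against 11.27, 10.82 and 10.50 on day 2, with day 0 samples at 7.05, 8.22 and 7.61 (log2 difference -4.06, SE 0.71, adjusted p = 0.0433). Pdp2, the phosphatase that activates pyruvate dehydrogenase, was at background with 2.58 and 2.57, against 5.83, 4.78 and 5.33, at least 3.93-fold higher on day 2 (adjusted p = 0.0325). Citrate synthase (Cs) fell in 2 of its 3 probe sets, by 0.69 (SE 0.12, adjusted p = 0.0403) and by 0.57 (SE 0.09, adjusted p = 0.0331), and the first of these had 13.22 and 13.16, against 13.93, 13.86 and 13.84. It was the 1 called member of 23 genes of the citrate cycle and pyruvate dehydrogenase, whose median was -0.03, with 3 higher and 8 lower without overlap (18.3% and 19.7% of all genes). Pcx, pyruvate carboxylase, was 2.81 lower and not called (difference -2.81, SE 0.52, adjusted p = 0.0554). With the Hox position score as a covariate the differences were -1.58 for Eno3, -1.43 for Pdp2 and -0.39 for the first probe set of Cs.

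Cbr2, a carbonyl reductase, had 6.04 and 6.09 on day 7, against 8.47, 8.42 and 8.47 on day 2 (log2 difference -2.39, SE 0.41, adjusted p = 0.0419). Abat, which degrades the transmitter GABA, fell by 1.61 (SE 0.16, adjusted p = 0.00225), Aldh2, the mitochondrial aldehyde dehydrogenase, by 0.96 (SE 0.15, adjusted p = 0.0303) and Ckmt1, mitochondrial creatine kinase, by 1.30 (SE 0.22, adjusted p = 0.0404). These last 3 were named after their values were seen. Among cholesterol synthesis genes none of 16 was called, 15 were lower without overlap and none higher (19.7% and 18.3% of all genes), and the median was -0.76. Msmo1, a sterol methyl oxidase, had 10.20 and 10.21, against 11.69, 11.68 and 12.08 (difference -1.61, SE 0.51, adjusted p = 0.264), and Sqle, squalene epoxidase, had 9.89 and 9.88, against 11.05, 10.97 and 11.20. With the Hox position score as a covariate the list median was 0.18, of opposite sign. Day and score did not overlap in the WT samples compared, so that fit cannot separate them. Without the score the list median in CD4cre mice was -0.96, and there too the score differed between the days. The cause was not tested.

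Other falls were AI854703, at background on day 7 (2.63 and 2.81, against 7.10, 8.33 and 5.41 on day 2) and at least 12.2-fold higher on day 2 (adjusted p = 0.0331, with bounds of 7.53-fold without replicate 2 and 20.7-fold without replicate 3 of day 2), and 5430427M07Rik, 2.40 lower on day 7 (difference -2.40, SE 0.41), for which no role is given here. Pde7a, a phosphodiesterase for cyclic AMP, fell by 2.09 (SE 0.36, adjusted p = 0.0413), and Itih5, which binds hyaluronan in the matrix, fell by 2.06 (SE 0.35, adjusted p = 0.04), with a further probe set of it called. Sytl1, a partner of Rab27 in exocytosis, was at 5.09 and 5.17, against 7.06, 6.97 and 7.18 (difference -1.94, SE 0.32, adjusted p = 0.0369). Fitted with the Hox position score, the differences were -0.74 for Sytl1 and -0.94 for Itih5. Podn, a proteoglycan of the matrix that inhibits smooth muscle growth, was the 1 called gene of 23 fibroblast and matrix genes and fell by 0.60 (SE 0.08, adjusted p = 0.0182). Of all genes 0.176% were called lower. Of the 23, 6 were higher and 3 lower without overlap (18.3% and 19.7% of all genes), and the median was 0.16.

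Of the clock genes, whose feedback loop sets daily rhythms in most cells, the repressor Per2 was called. It was at 6.04 and 6.62 on day 7, against 8.58, 8.54 and 8.82 on day 2, and at 5.02, 4.97 and 5.04 on day 0 (log2 difference -2.32, SE 0.35, adjusted p = 0.0283). The 3 days did not overlap, with day 2 the highest. Cry1, its partner repressor, was at 7.68 and 7.88, against 9.12, 9.10 and 9.19, and was not called (difference -1.36, SE 0.35, adjusted p = 0.154). The output factor Tef had 8.48 and 8.67, against 8.90, 9.27 and 9.51, and Per3 had 4.74 and 5.07, against 5.17, 5.17 and 5.75. Of 18 measured members 1 was called lower, 4 were lower and 2 higher without overlap (19.7% and 18.3% of all genes), and the median was -0.08. The difference of Per2 was -1.44 with that score as a covariate. Since the hour of sampling is not given, time of day was not tested.

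Clock proteins act on promoters through the E-box CACGTG, and the output factors through a site with the letters TTANNTAA. Windows were at hand for 16 of the 18 members (not for Per2 and Bhlhe40). CACGTG was found on either strand in 5 (31.2%, against 8.09% of all symbols), namely Per1, Cry1, Bhlhe41, Ciart and Tef, and TTANNTAA in Per3 and Tef (12.5%, against 6.93%). The Cry1 and Per3 stretches are shown because these 2 genes stand for the 2 motifs, which are in capitals (both on the minus strand, Cry1 at chr10:85185069-85185154 and Per3 at chr4:151044776-151044910).
Cry1: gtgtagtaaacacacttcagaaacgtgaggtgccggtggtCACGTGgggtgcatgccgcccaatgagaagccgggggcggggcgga
Per3: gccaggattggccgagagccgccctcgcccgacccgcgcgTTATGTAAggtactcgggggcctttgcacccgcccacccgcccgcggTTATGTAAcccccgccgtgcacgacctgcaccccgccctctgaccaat
The E-box of Cry1 starts 60 bases before the start site, and Per3 carries its motif at 205 and 158 bases before it.

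Zbtb16, a zinc finger transcription factor that is needed for natural killer T cells and is induced by glucocorticoids, rose in 2 of its 3 probe sets. The one with the larger change was at 7.04 and 7.00 on day 7, against 3.92, 4.94 and 4.17 on day 2 and 4.18, 4.51 and 4.36 on day 0 (log2 difference 2.67, SE 0.42, adjusted p = 0.0303). In the other it was at 6.81 and 6.58, against 4.46, 5.08 and 5.03 (difference 1.83, SE 0.19, adjusted p = 0.00273). This call stayed without any 1 of the 3 day 2 samples but ended with the 5 samples alone and with the Hox position score. Both day 7 samples were thus above the samples of both earlier days. It was the 1 called member of 15 genes that respond to glucocorticoids, of which 5 were higher and 6 lower without overlap (18.3% and 19.7% of all genes, and 0.159% were called higher), with a median of -0.08.

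Among the remaining rises, Hdac6, a deacetylase of tubulin in the cytoplasm, had 6.28 and 5.67 on day 7, against 3.95, 4.25 and 3.69 on day 2 (log2 difference 2.01, SE 0.24, adjusted p = 0.00622). Its call stayed without any 1 of the 3 day 2 samples. It ended in the limma fits of the 5 samples alone, of the 3 WT groups and with the Hox position score (adjusted p up to 0.33). Rgs2, which shortens signalling by G proteins, was at 11.20 and 11.34, against 9.63, 9.53 and 9.90, and was called in 2 probe sets (1.58, SE 0.22, adjusted p = 0.0183, in the first). Nbea, a scaffold of membrane traffic, had 7.91 and 7.82, against 6.43, 6.46 and 6.43 (1.43, SE 0.22, adjusted p = 0.0281). These 3 genes came from different processes. Smaller rises were those of Slc16a4, of the monocarboxylate transporter family (1.67), Rassf4, of the Ras association domain family (1.57), Eif4e3, which binds the mRNA cap (1.47), and, against a day 2 group at background, Spata13, an activator of Rac (at least 2.04-fold higher), and B4galnt4, a glycosyltransferase (at least 1.04-fold higher). One B4galnt4 sample of day 7 (3.25, against 3.54 in the other) was itself under the background level. With the Hox position score as a covariate Rassf4 was 0.91 and Eif4e3 0.76 higher. Gm6958, for which no role is given here, was at 8.18 and 8.03, against 4.68, 5.36 and 3.74 (3.51, SE 0.51, adjusted p = 0.0255), and its day 0 samples were between 8.13 and 8.93.

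A list of 29 SR splicing factors and hnRNP proteins was drawn up from the calls, so its counts are a description and no evidence of a theme. Of these, 6 had a called probe set, all higher, where 0.269% of all genes had one called higher: Srsf5 (0.75), Srsf6 (0.67), Hnrnpr (0.91), Hnrnpu (0.48), Hnrnpdl (0.58) and Hnrnph1 (0.31). Tardbp, a further RNA-binding protein, was 1.00 higher (SE 0.17, adjusted p = 0.0357). Srsf5 was at 12.06 and 11.94, against 11.14, 11.18 and 11.41, and Hnrnph1 at 11.84 and 11.77, against 11.49, 11.49 and 11.52. These shifts were small and tight within a day. With 1 probe set per gene, the brightest, only Srsf5 and Hnrnph1 were called, so that for Srsf6, Hnrnpr, Hnrnpu, Hnrnpdl and Tardbp the call rested on a dimmer probe set. The brightest probe set of Hnrnpr was -0.18 on day 7 relative to day 2 (SE 0.17), the opposite direction. The median of the list was 0.16, with 15 of 29 higher and 1 lower without overlap (18.3% and 19.7% of all genes). Srsf5 was at 0.40 and Hnrnpu at 0.31 with the Hox position score as a covariate.

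**Figure D3:**
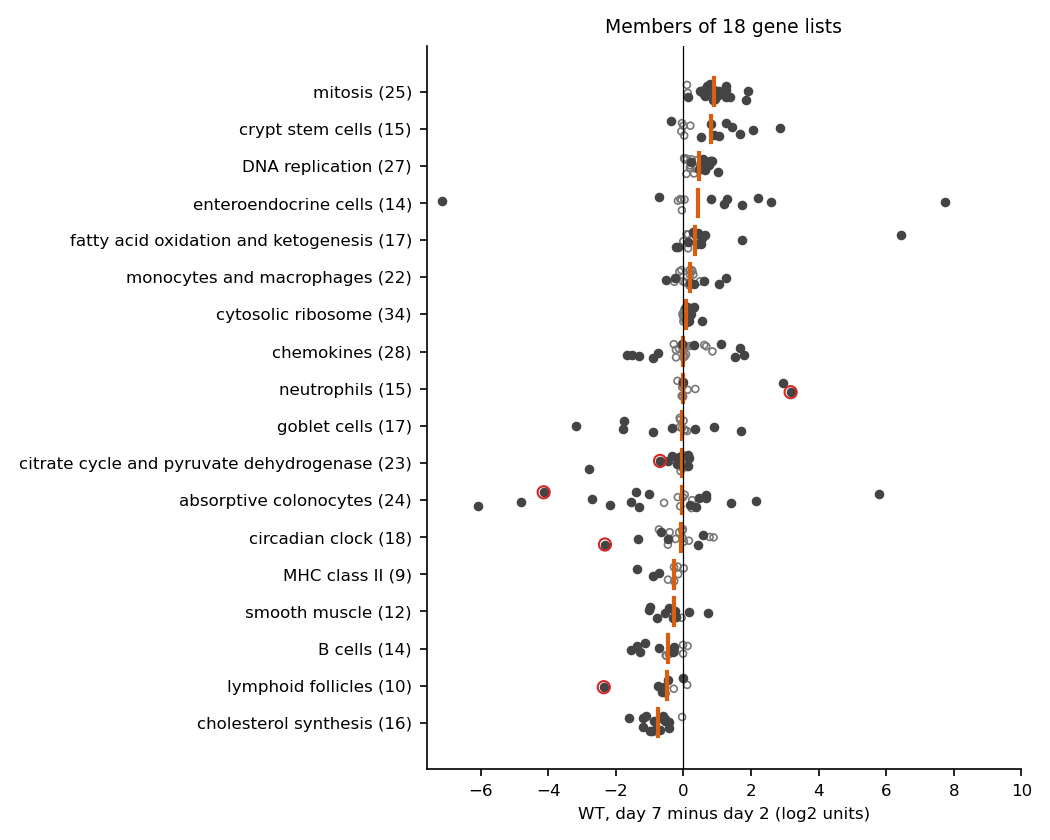
Difference between day 7 and day 2 in WT colon (x axis, log2 units) for each measured member of 18 gene lists (y axis, number of members in brackets). Filled points are members whose day 7 and day 2 samples do not overlap, open points are the others, red rings mark called members and vertical bars are list medians. Mitosis members all lie at or above 0 and cholesterol synthesis members at or below it, with medians of 0.90 and -0.76.

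The widest differences in WT colon were not among the calls. Of probe sets without overlap, 51 that differed by over 4 on the log2 scale were not called, and 3 that did were. The SE of each rested on the spread within all 6 groups, day 0 and CD4cre samples included, not on the 5 samples alone. Mptx1, a mucosal pentraxin, was at 3.36 and 3.95 on day 7, against 15.90, 16.47 and 14.07 on day 2 (difference -11.82, SE 3.13, adjusted p = 0.171). Reg3g and Reg3b, antibacterial lectins of the gut, were 9.44 (SE 2.21) and 9.50 (SE 2.59) higher on day 7, and Reg3g had 13.49 and 13.38, against 2.95, 5.14 and 3.89. Their day 0 samples were also high (Reg3g at 11.27, 11.36 and 12.41), so for these lectins the 3 day 2 samples were the low ones.

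Several wide differences went with the Hox position score. Hoxb13, the most distal Hox gene of its cluster, was at background on day 7 (2.94 and 2.91), against 11.16, 11.54 and 11.08 on day 2, and at 2.98, 7.47 and 3.15 on day 0. Insl5, a hormone of colonic enteroendocrine cells, had 4.49 and 4.45, against 11.50, 11.66 and 11.65, and Aqp4, a water channel, had 3.97 and 4.32, against a mean of 10.29 ± 0.36 (SD, n = 3). Hoxd10 ran the other way (7.11 and 6.91, against 2.59, 2.40 and 2.37), and so did the hormone gene Nts (11.05 and 10.86, against 3.30, 3.85 and 2.53). In each of these 5 genes replicate 2 of day 0, whose score was 1.25, was nearer to the day 2 samples than replicates 1 and 3 of day 0 were. This rests on 1 sample and on genes picked with their values in view. What caused these differences was not tested. Of 14 enteroendocrine genes, Insl5 among them, 7 were higher and 2 lower on day 7 without overlap (18.3% and 19.7% of all genes). None of the 14 was called, and their median was 0.43, or -0.08 with the score as a covariate. With the score as a covariate the differences of Hoxb13, Insl5, Aqp4, Hoxd10 and Nts changed sign. Hoxb13 and Hoxd10 are themselves members of the score, so for both this is partly fixed by how the score was formed. The differences of the pentraxin and the lectins shrank with the score to -0.53 for Mptx1, 1.91 for Reg3g and 1.06 for Reg3b. Best2, Glycam1, Per2 and S100a9 did not show the split among day 0 samples, but none of them was called with the score as a covariate, where their differences were -1.99, -2.27, -1.44 and 4.14. Atp12a, a colonic proton pump, also lacked the split (5.13, 5.34 and 5.07 on day 0) and had 5.51 and 6.29 on day 7, against 12.47, 12.35 and 11.12 on day 2, but it was not called (difference -6.08, SE 1.33, adjusted p = 0.102, and -2.39 with the score).

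**Figure D4:**
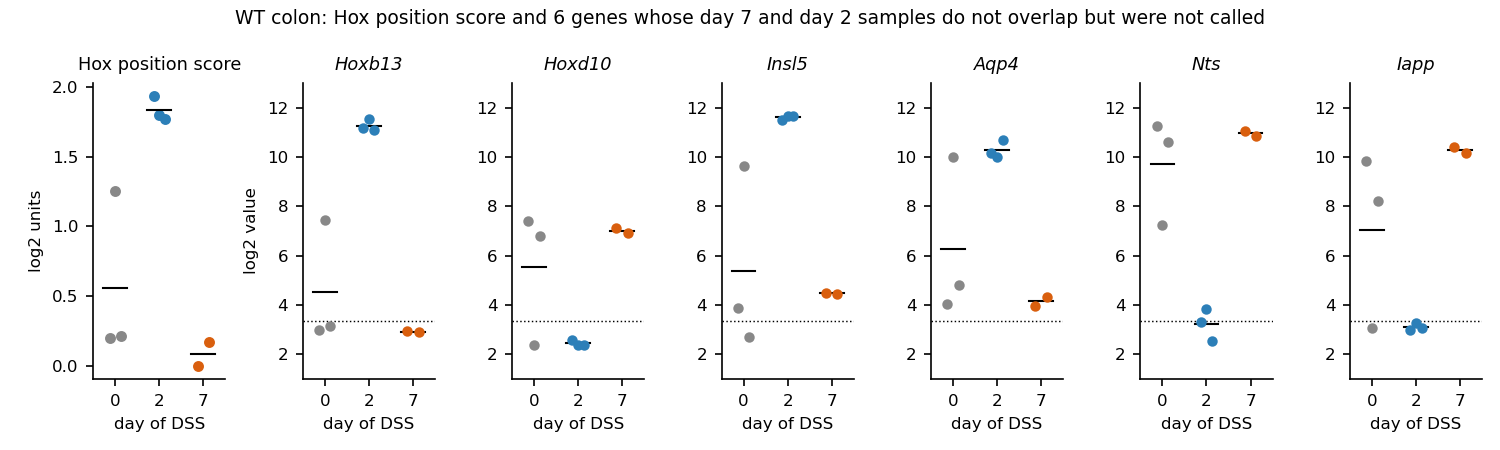
Hox position score (first panel, log2 units) and log2 values of 6 genes (y axes) in WT colon without DSS (0) and after 2 or 7 days of it (x axes). Points are samples, lines are group means and the dotted line is the background level of 3.34. Day 7 and day 2 samples do not overlap in any panel. Among samples without DSS, replicate 2 lies nearest to the day 2 samples in the score and for Hoxb13, Hoxd10, Insl5, Aqp4 and Nts. The genes were picked with their values in view.

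The change between the same days was also measured in CD4cre mice, which share no sample with WT mice. Both changes came from the same fit, with the same variance estimate for each probe set, so calls in the 2 genotypes are not independent. In CD4cre mice, 2439 probe sets (5.42%) were called in day 7 minus day 2, 2.49% higher and 2.93% lower. Of the 47 WT falls, 44 (93.6%) had the same sign in CD4cre mice, where 61.4% of all probe sets did, and 23 (48.9%) were called lower there too, with a median fall of 0.60 in place of 1.00. Per2 fell by 2.83 in CD4cre mice (adjusted p = 0.000938), Sytl1 by 2.35 (adjusted p = 0.00146), Pdp2 by 1.97 (adjusted p = 0.0152), Abat by 1.44 (adjusted p = 0.000658) and Car2 by 1.09 (adjusted p = 0.00567). For Cs the falls were 0.71 and 0.77. Pdp2 was at background on day 7 in CD4cre mice too, and Glycam1 was at background there on both days. Of the 63 WT rises, 34 (54.0%) had the same sign, 6 were called higher and 3 were called lower, and the median was 0.01 in place of 0.77. S100a9, Eif4e3, Hnrnpu and Hnrnph1 were among the 6. The score also differed between these CD4cre groups, at 0.05, 0.98 and 0.04 on day 7, against 1.74, 1.36 and 1.04 on day 2, and its part in the shared falls was not tested.

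**Figure D5:**
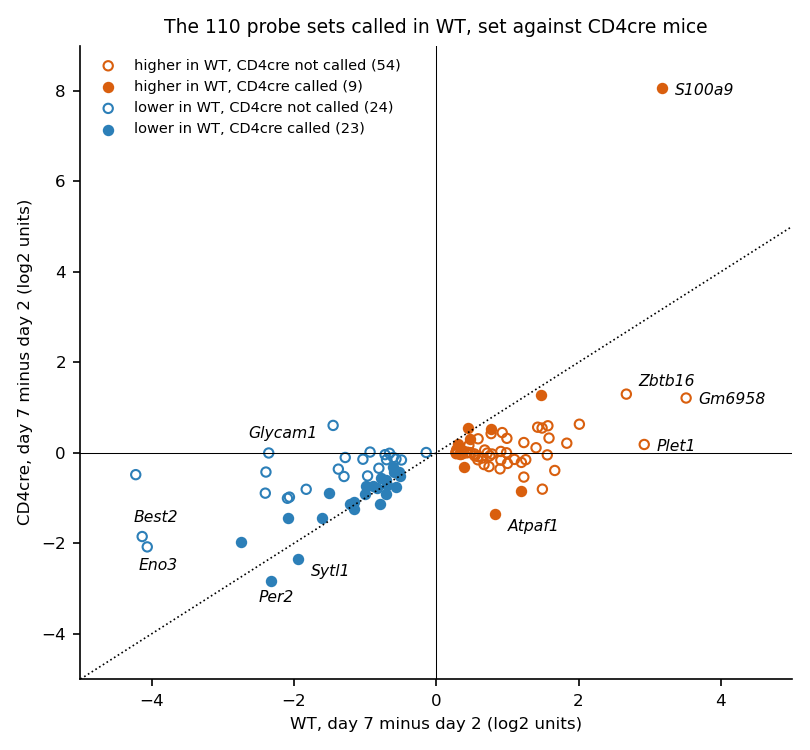
Difference between day 7 and day 2 in WT mice (x axis) and in CD4cre mice (y axis), both in log2 units, for the 110 probe sets called in WT mice. Filled points were also called in CD4cre mice in either direction, and the dotted line marks equal differences. Of the falls, 23 of 47 are filled and 44 lie below 0 on the y axis, and of the rises 9 of 63 are filled.

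The change differed between WT and CD4cre mice in 103 probe sets (0.229%), 67 (0.149%) with a higher value in WT mice and 36 (0.0799%) with a lower one, when the difference itself was tested in the same fit. Among those lower in WT mice were the cytokine Il6, the neutrophil chemokine Cxcl1 and the acute phase protein Hp, with differences of 0.00, 0.37 and 1.70 in WT mice, none called, against rises of 6.64, 5.70 and 6.84 in CD4cre mice, where the day 2 samples were at or near background. Of the 110 probe sets called in WT mice 30 were also among the 103, 26 with a higher change in WT mice and 4 with a lower one, but both counts use the same WT samples. Several of the 26 were at background on both days in WT mice, among them Sidt1, Alms1, Trmt6, Gimap6, Mttp and Gpr174. Atpaf1, an assembly factor of ATP synthase, rose by 0.83 in WT mice (7.23 and 7.12 on day 7, against 6.36, 6.25 and 6.42 on day 2, adjusted p = 0.0295, and 0.54 with the Hox position score) and fell by 1.35 in CD4cre mice (adjusted p = 0.000305). Tenm4, a teneurin, was near background throughout. In WT mice it had 3.71 and 4.03 on day 7, against a day 2 group at background, and was at least 1.45-fold higher (adjusted p = 0.0306), while in CD4cre mice it had 2.51, 2.57 and 2.58 on day 7, at background, against 3.23, 3.43 and 3.53 on day 2 (called lower, adjusted p = 0.015). For Per2 the difference between genotypes was 0.51 and was not called (adjusted p = 0.805). Pparg itself, which is intact in WT mice, was at 10.50 and 10.29 on day 7, against 9.21, 9.18 and 9.79 on day 2 (difference 1.00, SE 0.59, adjusted p = 0.656).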

How the data were processed

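RNA of colon was measured on Affymetrix arrays. Sample titles say colon, while the paper describes the arrayed tissue in places as colonic mucosa and in others as colon. The deposited log2 values were made by the authors with gcRMA, which adjusts background by probe sequence, normalizes between arrays and summarizes probes, in R 2.9.0. The 64 control probe sets were left out, and the number of arrays limits the precision. Gene symbols came from the platform annotation (34945 probe sets with 1 symbol, 932 with several, 9160 with none). For lists, the probe set with the highest mean stood for a gene. Linear models with a mean for each of the 6 groups (11 residual degrees of freedom) were fitted in limma 3.58.1 under R 4.3.3, with contrasts for day 7 minus day 2 in WT mice, in CD4cre mice and for the difference between these, and Benjamini-Hochberg adjustment over all probe sets. The script was tested on simulated data. The members and the gene lists were chosen with earlier results of these data known. Named were the 12 largest rises and 12 largest falls among called, non-overlapping probe sets with 1 symbol, up to 4 called members of each list (or the 2 with the smallest p), genes the study followed in colon and the 5 largest called differences between genotypes in each direction. Car2, Abat, Aldh2, Ckmt1, the RNA-binding proteins and further genes without a call (S100a8, Cd3e, Cxcl13, Ms4a1, Bank1, Slc26a3, Ascl2, Mki67, Cdk1, Pcx, Sqle, Cry1, Tef and those with wide differences) fall outside this rule and were picked with their values in view. Fold changes against a group at background are lower bounds. Alternatives were other scalings, filters, samples, covariates and thresholds, and those that leave out CD4cre samples were chosen after seeing the data.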

Additional observations from a re-analysis of the deposited data

Results flagged for a closer look

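The change between day 7 and day 2 differed between WT and CD4cre mice, by a test of the difference itself in the limma fit, in the following named genes. Values are the WT change minus the CD4cre change on the log2 scale, with adjusted p over all probe sets. Where a group lay at background, as for the genes of inflammation other than Cxcl1 on day 2 and for Tenm4, Spata13 and B4galnt4, they are fitted values and no bounds. On day 2 Cxcl1 was near background but above it in WT mice (3.39, 3.40 and 3.40). Genes of inflammation had the lower change in WT mice: Il6 -6.64 (adjusted p = 0.000144), Socs3 -5.86 in 1 of its 3 probe sets (adjusted p = 0.0184), Cxcl1 -5.33 (adjusted p = 0.0279), Hp -5.14 (adjusted p = 0.0175), S100a9 -4.88 (adjusted p = 0.0307) and S100a8 -4.35 (adjusted p = 0.0481). S100a9 rose in both genotypes, by 3.17 in WT mice and by 8.05 in CD4cre mice.

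The higher change was in WT mice for Greb1 (4.85, adjusted p = 0.00932), whose values in WT mice were 5.61 and 5.34 on day 7, against 3.42, 3.44 and 3.81 on day 2, and which fell by 2.94 in CD4cre mice. The same held for Smim38 (4.33, adjusted p = 0.0463), the clock gene Per3 (3.11), Atpaf1 (2.18), Tenm4 (2.04), 1 probe set of Zbtb16 (1.62, adjusted p = 0.0405), Spata13 (1.41), B4galnt4 (1.00, adjusted p = 0.0494) and the RNA-binding proteins Hnrnpr (1.07, adjusted p = 0.0193), Srsf6 (0.93) and Hnrnpdl (0.74). Per3 had 4.74 and 5.07 on day 7, against 5.17, 5.17 and 5.75 on day 2 in WT mice, and fell by 3.57 in CD4cre mice.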

How the results depend on the processing

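The 110 probe sets called in WT mice became 21 at an adjusted p under 0.01, 280 under 0.10, 713 with the 5 samples alone, 260 with the 3 WT groups, 1215 with array quality weights (whose estimate stopped before converging) and 5 with the Hox position score. Leaving out 1 sample gave 48 to 330. The share of higher calls, 57.3%, was 80.0% with the score, and without a day 7 sample it was 88.7% or 84.6%. The 103 differences between genotypes became 15 under 0.01, 354 under 0.10, 29 with the groups of days 2 and 7 alone, 165 after median centring, 65 after quantile normalization, 51 with a trended and robust fit, 239 with weights, 31 with the score, 61 without the samples with pancreatic transcripts, and 30 to 1324 without 1 sample, the highest without replicate 3 of CD4cre day 7. With the replicate block the counts were 131 and 36. The deviations of same-numbered WT samples of days 7 and 2 had correlations of 0.03 and -0.01. With 2 samples on day 7 this is a weak check, and whether same-numbered samples shared a batch was not tested. All 38 named calls kept their sign in up to 21 settings, 5 passed without any 1 of the 5 samples, and all 38 ended with the score. Of the 38, 22 ended with the 5 samples alone and 22 with the 3 WT groups. With the score the sign reversed for Icam1 (0.64), Nts (-0.75), Hoxb13 (0.38), Msmo1 (0.027), Pparg (-0.98), Insl5 (1.78), Aqp4 (0.90), Sqle (0.30), Cpa1 (1.08, a pancreatic enzyme) and Hoxd10 (-2.40). Cxcl1 ranged from -0.00068 to 0.75 without 1 WT sample. The cause of these changes was not tested. Of the list medians under alternatives 311 stayed within the spread between samples and 49 moved beyond it, 28 of them with the score.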
